A study of Mus musculus with 8 samples.

Results

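Toll-like receptors (TLRs) and their co-receptor CD14 were followed in bone marrow derived macrophages (BMDMs) as the 10 genes Tlr1, Tlr2, Tlr3, Tlr4, Tlr6, Tlr7, Tlr8, Tlr9, Tlr13 and Cd14. They were picked by symbol and not by value from the raw count tables, which list 53735 genes. Earlier results of these data were known when they were chosen. Of these, 14418 genes had enough counts to be tested, and the 10 receptor genes were all among them.

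Bulk RNA-seq gave 8 BMDM libraries, of which 4 were WT (Mkl1+/+, Apoe-/-) while the other 4 were KO (Mkl1-/-, Apoe-/-). Every mouse was a male of 6 months on the C57BL/6J background that lacked Apoe and had received angiotensin II (Ang II) from an osmotic minipump at 1.44 mg/kg/day for 7 days, so no library stands for an uninfused or Apoe-sufficient animal. Marrow cells were then grown into macrophages in culture for 7 days, with Mkl1 deleted in the whole animal and not in macrophages alone. Experiment 1 held WT 1, WT 2, KO 5 and KO 6, and experiment 2 held WT 3, WT 4, KO 7 and KO 8, and both were called batches by the submitters. No macrophage was exposed to a TLR ligand in culture as far as the labels tell. All p-values measure the spread between these libraries.

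TLRs are membrane receptors that recognise molecules of microbes and of damaged cells through leucine-rich repeats and signal through a cytoplasmic TIR domain. TLR2, paired with TLR1 or TLR6, and TLR4 sit mainly at the cell surface and recognise lipopeptides and lipopolysaccharide, and CD14 hands ligands to them. TLR3, TLR7, TLR8, TLR9 and, in mice, TLR13 sit in endosomes and recognise RNA or DNA. All but TLR3 signal through the adaptor MyD88 to NF-κB and inflammatory cytokines, while TLR3, and TLR4 after uptake, use the adaptor TRIF, which leads to interferon genes. MKL1 (also MRTF-A) is a coactivator of serum response factor, which binds the CArG box.

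Promoter sequence is shown for the surface receptor genes that were lower in KO, Tlr1, Tlr2 and Tlr6, and for Tlr3, which moved in opposite directions in the 2 experiments. The 250 bases before each start site came from RefSeq on GRCm38.p6, which lists 9 start sites for 7 of the 10 genes. Tlr4, Tlr7 and Cd14 were not among them. For Tlr1, Tlr2 and Tlr6 a stretch outside exons annotated by GENCODE M21 is printed, for Tlr6 that of the start site with a motif match and not that of its other start site, which had none, and for Tlr3 the 30 bases around its NF-κB site. All 4 are on the minus strand and read 5′ to 3′, at chr3:83841768-83841858 for Tlr2, chr8:45410572-45410601 for Tlr3, chr5:64959167-64959416 for Tlr6 and chr5:64933564-64933808 for Tlr1. Capitals mark an NF-κB site in Tlr2 and Tlr3, a pair of overlapping interferon response elements in Tlr6 and a PU.1 core in Tlr1.
Tlr2: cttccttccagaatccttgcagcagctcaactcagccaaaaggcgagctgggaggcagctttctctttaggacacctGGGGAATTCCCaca
Tlr3: agttgtttctGGGAGTTTCCtgcttttgag
Tlr6: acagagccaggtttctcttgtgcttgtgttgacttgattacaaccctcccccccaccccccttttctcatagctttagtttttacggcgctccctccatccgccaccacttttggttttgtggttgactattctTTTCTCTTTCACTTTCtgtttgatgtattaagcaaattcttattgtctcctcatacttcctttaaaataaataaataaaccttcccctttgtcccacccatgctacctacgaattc
Tlr1: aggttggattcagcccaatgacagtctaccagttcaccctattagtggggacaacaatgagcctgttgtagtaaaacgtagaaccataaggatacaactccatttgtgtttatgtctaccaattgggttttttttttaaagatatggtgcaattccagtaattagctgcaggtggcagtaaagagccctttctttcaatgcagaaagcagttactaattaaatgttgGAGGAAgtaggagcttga

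Motifs were searched on both strands of all 9 windows. A consensus NF-κB site occurred in 2 of the 7 genes, Tlr2 and Tlr3, and in 7.28% of 32536 promoter windows of the same length. In Tlr2 the 2 overlapping matches began 173 and 172 bases before the RefSeq start, which lies inside a longer GENCODE transcript. An interferon response element was found in 1 gene, Tlr6, beginning 116 and 110 bases before the start, against 2.98% of windows. The PU.1 core (GAGGAA) occurred in 4 genes, Tlr1, Tlr8, Tlr9 and Tlr13, against 23.4% of windows. A GAS element (TTCNNNGAA) was in Tlr1 and Tlr8, against 7.04% of windows, and an AP-1 site (TGANTCA) in Tlr9, against 6.73%. No window of the 7 genes held a CArG box, which 1.48% of windows held. These matches describe letters in short windows and carry no measurement of binding.

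Library totals lay between 33977799 and 41584540 counts. Mkl1, the targeted gene, had 25.6 to 29.6 CPM (counts scaled to library size) in WT and 10.4 to 20.9 CPM in KO, with no overlap. An exact permutation test, two-sided, gave p = 0.0286 over 70 arrangements of the 8 libraries and p = 0.0556 over the 36 that exchange labels only within an experiment, the smallest value each can give. Mkl1 reads were lowered in KO and not absent, with a KO mean of 76.7% of WT in experiment 1 (log2 fold change -0.39, adjusted p = 0.00381, edgeR) and of 44.4% in experiment 2 (-1.17, adjusted p = 0.0218), while the fit over both gave -0.78 (adjusted p = 0.0574). The group means did not order by genotype over all genes. The SD of the log2 difference over 14418 genes was lowest, 0.41, between KO of experiment 2 and WT of experiment 1, and lay between 0.84 and 0.98 for the other pairs of groups. For the 10 receptor genes, too, this pair was the closest, with a root mean square difference of 0.47 on the log2 scale against 0.60 to 1.32 for the others. Group labels were used as given, Mkl1 was lower in the libraries labelled KO in each experiment, and whether libraries were exchanged between experiments was not tested. The 12 macrophage markers summed to between 15789 and 36821 CPM in every library, with 5 lower and 5 higher in KO of experiment 1 (28.1 and 27.0% of all genes tested) and 3 lower and 3 higher in experiment 2 (8.29 and 7.52%). Without KO 5 or KO 6 the 5 lower calls of experiment 1 were 3, and without any 1 library those of experiment 2 were at most 1 lower and at most 1 higher. Among them Adgre1, which encodes F4/80, had 8328 and 7102 CPM in WT and 1929 and 1669 CPM in KO of experiment 1, and 2678 and 2720 CPM in WT and 4874 and 5264 CPM in KO of experiment 2, with log2 fold changes of -2.11 and 0.91 (adjusted p = 6.39e-06 and 0.0258, edgeR). The call of Adgre1 in experiment 1 held without any 1 library, and that in experiment 2 was lost without each of the 4 (adjusted p of 0.069 to 0.111). Both KO libraries of experiment 1 stood apart by markers of other cells. Fibroblast and stromal markers (9 genes) summed to 217 to 288 CPM in them and to 2.83 to 14.3 CPM in the other 6 libraries, and monocyte markers (5 genes) to 145 to 175 CPM against 4.65 to 43.6 CPM. Markers of neutrophils, of dendritic cells, and of T and NK cells each summed to at most 1.81 CPM in any library, and 4 of 6 B cell markers had at most 3 counts in every library. Endothelial markers (5 genes, of which Tek was at most 3 counts everywhere) summed to 71.8 to 90.4 CPM in WT and 164 to 191 CPM in KO of experiment 1, and to 118 to 223 CPM in WT and 68.5 to 107 CPM in KO of experiment 2. Nearly all of these sums was Vwf and Kdr, and the markers did not move as one in experiment 2, where Kdr had 173 and 68.4 CPM in WT and 33.6 and 22.1 CPM in KO (adjusted p = 0.0517, edgeR) and Vwf 48.6 and 48.4 CPM in WT and 71.8 and 44.7 CPM in KO, while Cdh5 passed as lower and Pecam1 as higher, both at under 2 CPM and both lost without any 1 of the 4 libraries. Results are therefore given by experiment, and whether RNA of fibroblasts, monocytes or endothelial cells had a part in them was not tested. In bulk RNA, fewer cells of a type and less RNA per cell cannot be told apart.

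Per kilobase of exon, which allows levels of different genes to be compared, Cd14 was the most abundant of the 10, with a mean over 8 libraries of 394 CPM per kb and a lowest library of 181 CPM per kb. Among all TLR levels, those of Tlr2 in WT 3 and WT 4 lay above that library. Tlr13 (94.7), Tlr2 (72.2), Tlr8 (66.7), Tlr7 (59.8), Tlr4 (47.1) and Tlr1 (37.6) followed as mean CPM per kb, and each overlapped its neighbour in this order over the 8 libraries. Tlr6 (8.04), Tlr3 (7.90) and Tlr9 (5.47) were lowest and overlapped each other. Tlr2 changed place most between groups. It was the most abundant TLR in WT of experiment 2, at 191 CPM per kb, but had 46.6 in WT of experiment 1 and 27.3 and 23.4 in KO of experiments 1 and 2, behind Tlr13, Tlr8, Tlr7 and Tlr4 in both KO groups. Tlr13 was the most abundant TLR in the other 3 groups, with 84.7 CPM per kb in WT of experiment 1 and 128 and 87.2 CPM per kb in KO of experiments 1 and 2.

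**Figure D1:**
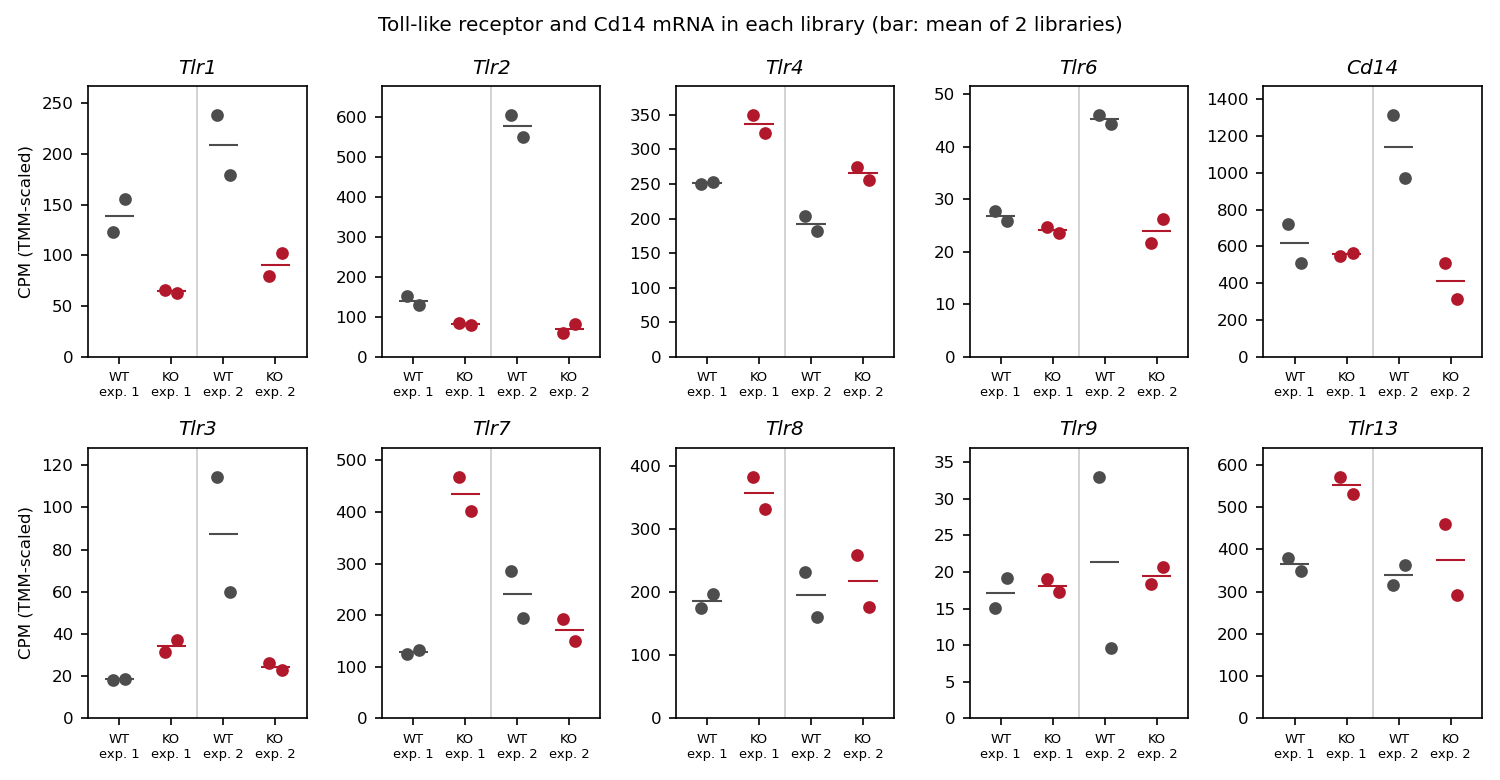
Level of each receptor gene in CPM (linear axis from 0) in the 8 libraries, with WT in grey and KO in red, points for libraries and bars for the mean of 2 libraries. Tlr1 and Tlr2 sit lower and Tlr4 higher in every KO library than in every WT library, while Tlr3 rises in KO of experiment 1, from 18.3 and 18.7 to 31.5 and 37.0 CPM, and falls in KO of experiment 2, from 115 and 60.1 to 26.1 and 22.7 CPM.

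KO and WT were compared within each experiment, then over both, to ask which receptors differ in Mkl1 KO. The threshold was an adjusted p under 0.05 over the 14418 genes. In experiment 1, 2 of the 10 genes were lower in KO (Tlr1, Tlr2) and 5 higher (Tlr4, Tlr3, Tlr7, Tlr8, Tlr13), where 28.1% and 27.0% of all genes tested were lower and higher. KO and WT did not overlap for 3 genes that were lower (Tlr1, Tlr2, Tlr6; 38.7% of all genes) and the same 5 that were higher (41.2%). In experiment 2, 5 genes were lower (Tlr1, Tlr2, Tlr6, Cd14, Tlr3) against 8.29% of all genes, and none was higher against 7.52%, with 6 of the 10 at an unadjusted p under 0.05 in either direction by edgeR and 1 higher, Tlr4, by DESeq2 or with upper-quartile scaling. KO and WT did not overlap there for 6 genes that were lower, these 5 and Tlr7, against 32.5% of all genes, and for Tlr4, which was higher, against 32.9%. The 5 calls of experiment 2 fell to 1 without KO 8, to 2 without KO 7 and to 2 without WT 3.

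Over both experiments 1 gene was lower, Tlr1, and 1 higher, Tlr4, against 3.41% and 3.72% of all genes. KO libraries lay wholly below WT for Tlr1 and Tlr2 (6.25% of all genes) and wholly above for Tlr4 (6.46%). With upper-quartile scaling in place of TMM 7 receptor genes passed in experiment 1, 2 over both and 5 for the interaction, as with TMM, and in experiment 2 Tlr4 passed as well (log2 fold change 0.52, adjusted p = 0.0428, edgeR), while the share of calls over all genes that were lower moved from 51.0 to 40.2% in experiment 1 and from 47.8 to 32.7% over both. The number of genes called was 1 without any of WT 1, WT 2, WT 4, KO 5, KO 6 or KO 7, and 3 without KO 8. Taken experiment by experiment, Tlr1 and Tlr2 were lower in both (2.25% of all genes), none was higher in both (2.13%), and Tlr3 changed in opposite directions (6.34%). The effect of KO differed between the experiments for 5 of the 10 genes (Tlr2, Tlr6, Cd14, Tlr3, Tlr7), always in the direction of lower in experiment 2, against 20.6% of all genes, and for none in the other direction, against 21.0% (none by DESeq2 either, and 6 of the 10 at an unadjusted p under 0.05 in either direction).

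**Figure D2:**
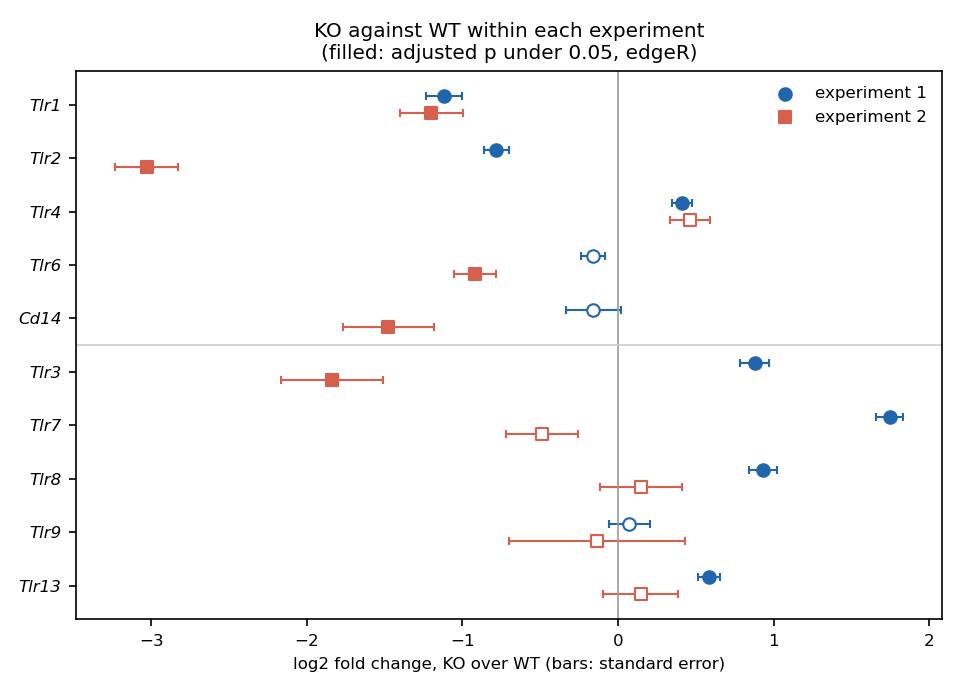
Log2 fold change of KO over WT for each receptor gene in experiment 1 (circles) and experiment 2 (squares), with bars for the standard error and filled symbols for an adjusted p under 0.05 by edgeR. Tlr1 and Tlr4 lie at nearly the same place in both experiments (-1.12 and -1.20, 0.41 and 0.46), while Tlr3 (0.88 and -1.84) and Tlr7 (1.74 and -0.49) lie on opposite sides of 0.

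Tlr2, which recognises lipoproteins with a partner receptor, had 151 and 130 CPM in WT 1 and WT 2 and 83.8 and 80.8 CPM in KO 5 and KO 6. Experiment 2 gave 605 and 549 CPM in WT 3 and WT 4 and 59.8 and 81.5 CPM in KO 7 and KO 8. All KO libraries lay below all WT libraries, and the WT libraries of experiment 2 stood far above those of experiment 1, while the 4 KO libraries covered a narrow range. Its log2 fold change was -0.78 (standard error 0.08, adjusted p = 0.000128, edgeR) in experiment 1 and -3.03 (0.20, adjusted p = 0.00448, edgeR) in experiment 2, and both calls held in all fits that left out a library. The decrease was larger in experiment 2 by 2.26 on the log2 scale (interaction adjusted p = 0.000477, edgeR). Fitted over both experiments, with this difference counted as error, the log2 fold change was -1.90 (0.48) with an adjusted p of 0.0624 by edgeR and of 0.000211 by DESeq2.

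Tlr1, a partner of TLR2 for triacylated lipoproteins, had 123 and 155 CPM in WT 1 and WT 2 and 66.2 and 62.9 CPM in KO 5 and KO 6. In experiment 2 the WT libraries held 238 and 179 CPM and the KO libraries 79.5 and 102 CPM. The highest KO library stayed below the lowest WT library over both experiments. The log2 fold change was -1.12 (standard error 0.12, adjusted p = 0.000553, edgeR) in experiment 1, -1.20 (0.20, adjusted p = 0.0228) in experiment 2 and -1.15 (0.14, adjusted p = 0.00718) over both. The call over both held without any 1 of the 8 libraries, and was lost without the experiment term (adjusted p = 0.143, edgeR). In experiment 2 alone the adjusted p by edgeR was 0.0527 without WT 3, 0.0856 without KO 7 and 0.0794 without KO 8.

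Tlr6, the partner of TLR2 for diacylated lipoproteins, lies 18.5 kb from Tlr1 on chromosome 5. It had 27.7 and 25.8 CPM in WT and 24.6 and 23.6 CPM in KO of experiment 1, and 46.0 and 44.3 CPM in WT and 21.6 and 26.1 CPM in KO of experiment 2. Its KO libraries lay below WT in each experiment, but narrowly in experiment 1, and WT of experiment 2 was high against the other 6 libraries. The log2 fold change was -0.16 (standard error 0.08, adjusted p = 0.106, edgeR) in experiment 1 and -0.92 (0.13, adjusted p = 0.0175) in experiment 2, and the experiments differed by 0.77 on the log2 scale (interaction adjusted p = 0.00616, edgeR). Without WT 3, KO 7 or KO 8 the adjusted p of experiment 2 was 0.0506, 0.0515 or 0.0543. Tlr1 and Tlr6 share sequence. Of the 50-base words of Tlr1 transcripts 15.4% occur in other genes, with 454 words in common with Tlr6, so reads of the 2 genes could be split uncertainly.

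Tlr4, the receptor of lipopolysaccharide, went the other way from its surface relatives. It had 251 and 252 CPM in WT and 350 and 324 CPM in KO of experiment 1, and 204 and 181 CPM in WT and 275 and 256 CPM in KO of experiment 2. Every KO library lay above every WT library, by a small margin of 252 against 256 CPM at the nearest. The log2 fold change was 0.41 (standard error 0.06, adjusted p = 0.000798, edgeR) in experiment 1 and 0.46 (0.13, adjusted p = 0.0688) in experiment 2, and 0.44 (0.08, adjusted p = 0.0246) over both. In experiment 2 the adjusted p was 0.0194 by DESeq2 and 0.0428 by edgeR with upper-quartile scaling. The call over both was lost in 6 of 8 fits without a library, with an adjusted p by edgeR of 0.0908 without WT 1, 0.0803 without WT 2, 0.0634 without WT 4, 0.0913 without KO 5, 0.0652 without KO 6 and 0.0813 without KO 7, while the log2 fold change stayed between 0.41 and 0.47 in them. It was lost as well without the experiment term (adjusted p = 0.182, edgeR).

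Cd14, the co-receptor that binds lipopolysaccharide and lipoproteins, had 724 and 509 CPM in WT and 548 and 566 CPM in KO of experiment 1, where the groups overlapped. The libraries of experiment 2 held 1314 and 971 CPM in WT and 509 and 313 CPM in KO, which did not overlap. WT 3 was the highest and KO 8 the lowest library. The log2 fold change was -0.16 (standard error 0.18, adjusted p = 0.493, edgeR) in experiment 1, where it was 0.12 without WT 1 and -0.39 without WT 2 (adjusted p = 0.00412). In experiment 2 it was -1.48 (0.29, adjusted p = 0.0337, edgeR), and the call was lost without WT 3 (adjusted p = 0.113) or KO 8 (0.111). The experiments differed by 1.33 on the log2 scale (interaction adjusted p = 0.0254, edgeR), a call lost without WT 2, WT 3, KO 5 or KO 6 (adjusted p of 0.0965, 0.0905, 0.0819 and 0.0851).

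Tlr3, the receptor of double-stranded RNA, had 18.3 and 18.7 CPM in WT 1 and WT 2 and 31.5 and 37.0 CPM in KO 5 and KO 6. Levels in experiment 2 were 115 and 60.1 CPM in WT 3 and WT 4 and 26.1 and 22.7 CPM in KO 7 and KO 8. KO was therefore above WT in experiment 1 and below it in experiment 2, and WT 3 and WT 4 were the 2 highest libraries. The log2 fold change was 0.88 (standard error 0.09, adjusted p = 0.000119, edgeR) in experiment 1 and -1.84 (0.33, adjusted p = 0.0296) in experiment 2, a difference of -2.73 (interaction adjusted p = 0.00167). The call of experiment 2 was lost without KO 7 (adjusted p = 0.0986) or KO 8 (0.148), and with no filter on low counts (0.112). Tlr3 overlaps an antisense gene, Gm45542, which the files do not list, and how reads were counted by strand is not given in the sources used here.

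Tlr7, a receptor of single-stranded RNA on chromosome X, had 125 and 133 CPM in WT and 469 and 403 CPM in KO of experiment 1, the largest rise among the 10 genes there. There were 286 and 195 CPM in WT and 192 and 150 CPM in KO of experiment 2. Both KO libraries of experiment 1 were above the other 6 libraries, and KO lay below WT in experiment 2 by a narrow gap. The log2 fold change was 1.74 (standard error 0.08, adjusted p = 4.16e-06, edgeR) in experiment 1 and -0.49 (0.23, adjusted p = 0.204) in experiment 2, and the difference of -2.25 had an interaction adjusted p of 0.00107. Tlr8, its relative 40.6 kb away on chromosome X, had 175 and 197 CPM in WT and 383 and 332 CPM in KO of experiment 1. In experiment 2 it had 232 and 160 CPM in WT and 259 and 176 CPM in KO, which overlapped. It rose by 0.93 (0.09, adjusted p = 0.000140, edgeR) in experiment 1 and had a log2 fold change of 0.15 (0.26, adjusted p = 0.729) in experiment 2, with an interaction adjusted p of 0.0784 by edgeR and 0.0327 by DESeq2.

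Tlr13, a mouse receptor of bacterial ribosomal RNA, had 380 and 349 CPM in WT and 572 and 531 CPM in KO of experiment 1. In experiment 2 it had 316 and 363 CPM in WT and 460 and 291 CPM in KO, so the 2 KO libraries lay on either side of WT. It rose by 0.59 (standard error 0.07, adjusted p = 0.000261, edgeR) in experiment 1, had a log2 fold change of 0.15 (0.24, adjusted p = 0.709) in experiment 2 and of 0.37 (adjusted p = 0.241) over both, where it was 0.53 (adjusted p = 0.0376) without KO 8. Tlr9, the receptor of unmethylated CpG DNA, had the lowest mean level of the 10 per kilobase over the 8 libraries, though Tlr3 lay below it in WT of experiment 1 and KO of experiment 2. It had 15.0 and 19.2 CPM in WT and 19.1 and 17.2 CPM in KO of experiment 1. In experiment 2 it had 33.1 and 9.63 CPM in WT and 18.3 and 20.6 CPM in KO, and the WT libraries were its highest and lowest of all 8. KO and WT overlapped in each experiment (log2 fold changes of 0.07 and -0.13, adjusted p = 0.658 and 0.892, edgeR). The rises of Tlr3, Tlr7, Tlr8 and Tlr13 in experiment 1 fell in its KO libraries. These libraries also held 217 to 288 CPM of fibroblast markers and 145 to 175 CPM of monocyte markers. Whether such cells had a part in the rises was not tested.

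The balance between receptors was read from levels per kilobase in the same library. The ratio of Tlr2 to Tlr4 lay between 0.947 and 5.58 in WT and between 0.400 and 0.588 in KO. The ratio of Cd14 to Tlr4 lay between 6.47 and 20.7 in WT and between 3.92 and 5.93 in KO. Neither ratio overlapped between the genotypes, which for Tlr2 over Tlr4 had to follow from the levels of each gene given above. Tlr2 over Tlr6 ran from 6.21 to 16.3 in WT and from 3.42 to 4.24 in KO, whereas Tlr2 over Tlr1 overlapped between the genotypes. The 5 endosomal receptors made up 55.7, 55.7, 42.7 and 40.5% of the summed level of the 9 TLRs in WT 1 to WT 4 and 75.8, 74.8, 70.5 and 59.7% in KO 5 to KO 8. In experiment 2 this came with a surface sum of 321 and 280 CPM per kb in WT and 98.9 and 111 in KO, and an endosomal sum that overlapped, with 240 and 191 CPM per kb in WT and 236 and 164 in KO. In experiment 1 both sums moved, the surface sum from 139 and 142 to 117 and 110 and the endosomal sum from 176 and 178 to 366 and 327 CPM per kb. These ratios were formed from genes described above and were not tested again.

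**Figure D3:**
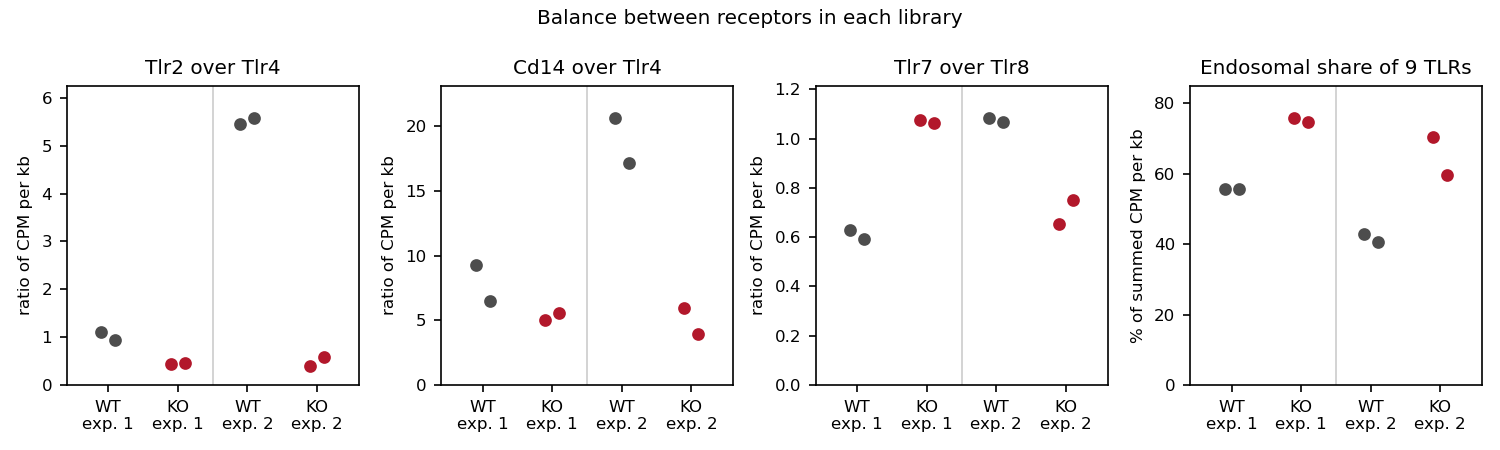
Ratios of CPM per kb of exon for 3 pairs of receptors, and the share of the 5 endosomal receptors in the summed CPM per kb of 9 TLRs, in each of the 8 libraries (linear axes from 0, WT in grey, KO in red). Tlr2 over Tlr4 is at most 0.588 in KO and at least 0.947 in WT, whereas Tlr7 over Tlr8 is near 1.07 in KO of experiment 1 and in WT of experiment 2, and between 0.591 and 0.749 in the other 4 libraries.

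Other TLR genes of the mouse were scarce. Tlr5, the flagellin receptor, had 0.26 to 0.63 CPM in WT, 1.84 and 1.97 CPM in KO of experiment 1 and 0.46 and 0.24 CPM in KO of experiment 2, with a log2 fold change of 2.27 (adjusted p = 0.000221, edgeR) in experiment 1 and of -0.34 (adjusted p = 0.723) in experiment 2. Tlr11 and Tlr12, which bind profilin of protozoa, did not have enough counts to be tested. Genes that help receptors bind ligand, fold, travel or mature (15 genes, all tested) were 4 lower and 5 higher in experiment 1, against 28.1 and 27.0% of all genes. In experiment 2, 1 was lower and 1 higher, against 8.29 and 7.52%, with 3 and 6 at an unadjusted p under 0.05 by edgeR and 2 and 4 by DESeq2. None passed over both by edgeR, where 2 were higher at an unadjusted p under 0.05 and 1 was higher by DESeq2. Their median log2 fold changes were 0.02, 0.18 and 0.09, against 0.01, 0.01 and 0.00 over all genes. Cd36, a scavenger receptor that assists TLR2 with TLR6, fell by 1.99 on the log2 scale in experiment 1 (adjusted p = 2.51e-06, edgeR), and Ctss, a protease that processes endosomal TLRs, rose by 0.71 (adjusted p = 0.000108). In experiment 2 Lbp, which carries lipopolysaccharide to CD14, rose by 3.10 from 0.17 to 1.47 CPM (adjusted p = 0.022), and Slc15a4, an endosomal transporter, fell by 0.65 (adjusted p = 0.0265). The call of Lbp was lost without WT 3, KO 7 or KO 8 (adjusted p up to 0.0913, edgeR) and that of Slc15a4 without any 1 of the 4 libraries (up to 0.101). Picked for their role with values known, Ly96, which encodes the TLR4 partner MD-2, had log2 fold changes of -0.30 (adjusted p = 0.0341, lost without any 1 of the 4 libraries) and 0.49 (adjusted p = 0.0597), and Unc93b1, the chaperone of endosomal TLRs, of -0.12 (adjusted p = 0.203) and 0.18 (adjusted p = 0.561) in experiments 1 and 2 by edgeR.

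Downstream of the receptors, 20 adaptors and kinases were all tested, of which 10 were lower and 5 higher in experiment 1 (3 higher by DESeq2 and without KO 5 or WT 1, and 4 without KO 6 or WT 2), against 28.1 and 27.0% of all genes. In experiment 2, 5 were lower and none higher (none lower without KO 8, 1 without KO 7 and 2 without WT 3), against 8.29 and 7.52%, with 1 higher by DESeq2 and at an unadjusted p under 0.05. Over both, 3 were lower and none higher (none by DESeq2 or at an unadjusted p under 0.05 either), against 3.41 and 3.72%. Those 3 were Irak2 (log2 fold change -1.62, adjusted p = 0.000504, edgeR), a kinase-like partner of MyD88, Ikbke (-1.15, adjusted p = 0.00786), a kinase of the interferon arm, and Traf3 (-0.59, adjusted p = 0.0094), a ubiquitin ligase, the last named after its values were seen, and all 3 calls held without any 1 of the 8 libraries. The median log2 fold change of the 20 genes over both was -0.12. Myd88 itself, named for its role, had log2 fold changes of -0.04 (adjusted p = 0.586) in experiment 1 and -0.95 (adjusted p = 0.031) in experiment 2, a call lost without WT 3, KO 7 or KO 8 (adjusted p of 0.0647 to 0.136). Of 10 transcription factors of the pathway, 5 were lower and 2 higher in experiment 1 (28.1 and 27.0% of all genes), 6 lower and 2 higher in experiment 2 (8.29 and 7.52%), and 2 lower over both (3.41%), the NF-κB subunits Relb (-1.40, adjusted p = 0.025) and Rel (-0.78, adjusted p = 0.0313). These calls over both were lost in 5 and 6 of 8 fits without a library (adjusted p up to 0.0906), for Relb without WT 1, WT 3, WT 4, KO 5 or KO 7 and for Rel without those or KO 8. Without KO 8 the 6 lower calls of experiment 2 were 2, and without WT 3, WT 4 or KO 7 they were 4. The 2 higher calls there were 1 without WT 3 and none without WT 4, KO 7 or KO 8, while in experiment 1 the 5 lower calls were 3 without WT 1 or KO 6 and the 2 higher were 1 without WT 1. Irf7, which drives interferon genes, rose by 2.33 in experiment 1 (adjusted p = 3.94e-06), and Nfkb2 fell by 2.65 in experiment 2 (adjusted p = 0.00422). Negative regulators of the pathway (17 genes) were 11 lower and 4 higher in experiment 1 (28.1 and 27.0% of all genes), 9 lower and 1 higher in experiment 2 (8.29 and 7.52%) and 7 lower and none higher over both (3.41 and 3.72%), with a median of -0.94 over both against 0.00 over all genes. Without a library the 7 calls over both were 3 to 7 (3 without KO 5, 4 without WT 1) and the 9 of experiment 2 were 5 without WT 3, KO 7 or KO 8. Among them Tnip3 (-2.21, adjusted p = 0.000702) and Tnfaip3 (-2.76, adjusted p = 0.00094), which encode partners in switching off NF-κB signalling and are themselves NF-κB targets, had the smallest p, and held in all of these fits.

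MyD88 targets and interferon targets went mostly opposite ways in experiment 1, and both were mostly lower in experiment 2. No test compared these arms. Of 16 genes known to be induced through MyD88, 15 were tested, and 13 were lower in experiment 1 (28.1% of all genes), 12 in experiment 2 (8.29%) and 12 over both (3.41%), with none higher in any of these fits (none by DESeq2, and none at an unadjusted p under 0.05). Leaving out KO 8 or KO 7 left 5 or 7 of the 12 in experiment 2, and leaving out KO 7 or WT 1 left 7 or 8 of the 12 over both. The median log2 fold change of the 15 was -3.53, -3.46 and -3.66 in turn. Tnf, which encodes tumour necrosis factor, had a mean of 915 CPM in WT and 74.7 CPM in KO over both experiments (log2 fold change -3.66, adjusted p = 0.000219, edgeR), and Cxcl2, a neutrophil chemokine, 364 and 13.6 CPM (-5.22, adjusted p = 0.000891). Of 15 genes induced through TRIF and interferon, 14 were tested, and 12 were higher in experiment 1 (27.0% of all genes), with none lower (28.1%), and 12 lower in experiment 2 (8.29%), with none higher (7.52%). Of the 14, 4 were lower there without KO 7 and none without KO 8. The median was 1.59 in experiment 1 and -3.41 in experiment 2, no gene passed over both by edgeR (none at an unadjusted p under 0.05, and 1 lower by DESeq2), and the effect was lower in experiment 2 for 14 of 14 by the interaction test, against 20.6% of all genes. Ifit2 rose from 57.3 to 305 CPM in experiment 1 (log2 fold change 2.40, adjusted p = 4.74e-07), and Cxcl10 fell from 748 to 1.43 CPM in experiment 2 (-9.03, adjusted p = 0.00867, or 0.0638 without KO 8). These lists were chosen with earlier results of these libraries known, so their direction is not independent evidence. Side by side, Tlr2 and Tlr1 were lower in both experiments, as most MyD88 targets were. Tlr3 was higher in experiment 1 and lower in experiment 2, as most interferon targets were. This likeness is of direction only and was not tested. By the interaction test the effect was lower in experiment 2 for 2 of the 15 MyD88 targets and higher for 6. Over all genes these shares were 20.6 and 21.0%. For Tlr2 the difference between the experiments was -2.26 on the log2 scale.

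**Figure D4:**
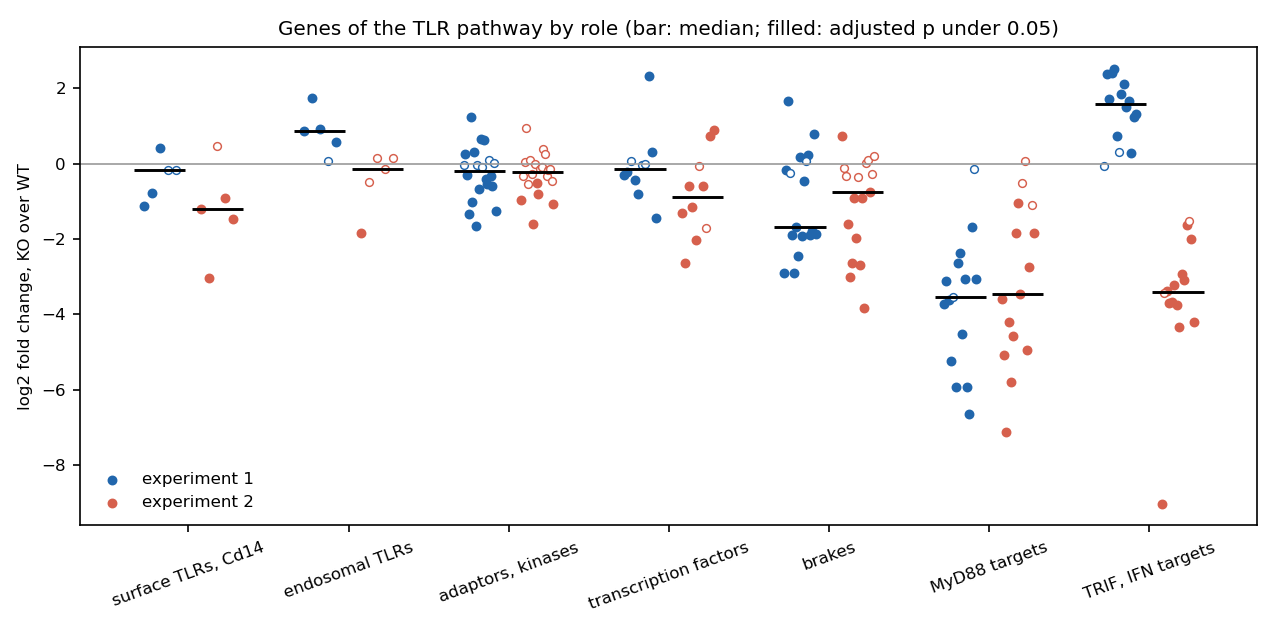
Log2 fold change of KO over WT for each tested gene of the pathway, grouped by role, in experiment 1 (blue) and experiment 2 (red), with black bars for the median and filled points for an adjusted p under 0.05 by edgeR. Targets of MyD88 lie below 0 in both experiments except for 1 point in experiment 2, and targets of TRIF and interferon lie mostly above 0 in experiment 1 and below 0 in experiment 2.

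Sensors of other families also differed by experiment. They were C-type lectins, NOD-like receptors, cytosolic sensors of nucleic acid, scavenger receptors and formyl peptide receptors. Of 20 tested, 9 were lower and 8 higher in experiment 1, against 28.1 and 27.0% of all genes. Experiment 2 had 11 lower and none higher (1 higher by DESeq2 and 2 at an unadjusted p under 0.05), against 8.29 and 7.52%. By the interaction test the effect was lower in experiment 2 for 13 of the 20 and higher for 4, against 20.6 and 21.0% of all genes. Those 11 fell to 2 without KO 8 and to 4 without KO 7. Over both, 1 was lower, Nlrc4, an inflammasome gene (log2 fold change -0.51, adjusted p = 0.0259, edgeR), a call lost in 6 of 8 fits without a library (WT 1 to WT 4, KO 6 or KO 7, adjusted p up to 0.0832), and the median was -0.53. The count over both differed by method, with 7 of the 20 lower by DESeq2 and 2 by limma-voom. Before adjustment 6 passed 0.05 as lower by edgeR. None was higher by any of these. Over all genes edgeR called 3.41% lower and 3.72% higher over both. In experiment 2 the smallest p belonged to Nod2, a sensor of bacterial cell wall, which fell from 71.6 to 8.00 CPM (-3.16, adjusted p = 0.00327), and Nlrp3, which fell from 558 to 32.6 CPM (-4.10, adjusted p = 0.00468). In experiment 1 the scavenger receptor Marco had a mean of 59.4 CPM in WT and 0.0125 CPM in KO, and the formyl peptide receptor Fpr2 68.7 and 0.34 CPM.

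Likeness to other genes was measured as the root mean square difference of log2 CPM over the 8 libraries, each gene centred on its own mean, among 9072 candidates. Tlr3 was closest to Herc6, Agrn and Ddx58 (0.11 to 0.12), of which Ddx58 encodes the RNA sensor RIG-I. Tlr2 was closest to Icosl (0.20), Prdm1 (0.24) and Nod2 (0.25), and its nearest relative among the 10 was Tlr1 at 0.71. Tlr7 had Kif5c, the complement gene C1qb and Slc37a3 nearest (0.14 to 0.17), and among the 10 it was nearest to Tlr8 (0.37). For Cd14 the nearest were Cxcl16 and the cell cycle genes Cenpe and Hmmr (0.17 each), and among the 10 Tlr6 (0.36). Tlr1 was closest to Riox2 (0.16), Tlr4 to D930015E06Rik (0.05), Tlr6 to Mvp (0.08), Tlr8 to AC159257.5 (0.11) and Tlr13 to Bbs9 (0.09). Over 8 libraries in 4 groups such distances describe these libraries and carry no test.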

How the data were processed

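Poly(A) RNA of 8 BMDM libraries was sequenced from a stranded mRNA kit. The submitters' processing notes name STAR 2.7.0f, Subread 1.6.4, featureCounts, DESeq2 1.22.1 and GRCm38, and the annotation and strand setting are not given in the sources used here. The authors deposited raw counts per gene for each experiment, and beside them normalized counts, a signal that equals the counts divided by a size factor of 0.891 to 1.09. The deposited counts alone entered the tests. Columns were joined by gene symbol, and the groups came from the sample labels.

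Genes that passed filterByExpr by genotype (14418, with 99.9% of counts) were tested with edgeR 4.0.16 in R 4.3.3 (TMM, robust quasi-likelihood F test, Benjamini-Hochberg over all of them, threshold 0.05). Each experiment was fitted alone, as the submitters compared their batches, then both with an additive experiment term, then with the interaction. Standard errors came from the fold change and F (size over root of F). CPM used TMM factors set over the 8 libraries, and levels per kb the union of exons in GENCODE M21. Log2 CPM for likeness used a prior count of 2. A level of 3 counts or fewer was read as not detected, a floor for counting error only. Replicate libraries differed by more than counting noise (chi-square per gene 11.0 to 73.1). Fits were also run on simulated counts that had the same relative spread for every gene and no difference between batches. That check therefore does not cover the spread of these libraries.

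The 10 genes and the 18 gene lists were chosen with earlier results of these data known. Named are the 10 genes, Mkl1, the 2 genes of each list with the smallest p of a fit, and the 3 most alike genes of each member; others are stated as such. Alternatives were DESeq2 1.42.0, limma-voom 3.58.1, upper-quartile scaling, 2 other filters, a fit of 4 groups, no experiment term, a mean effect beside the interaction, stricter calls and each library left out. Figures used matplotlib 3.10.9.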

Additional observations from a re-analysis of the deposited data

Results flagged for a closer look

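In KO 7, Tlr2 had the lowest level of its genotype, 59.8 CPM, far enough below the other 3 KO libraries (80.8 to 83.8 CPM) to be marked as standing apart from its group. Chance marks about 1 in 20 groups, and 22 groups were examined, of which this was the 1 marked.

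The effect of KO differed between the experiments, by the interaction test, for 5 of the 10 receptor genes and for the targeted gene. As effect in experiment 2 minus effect in experiment 1 on the log2 scale, Tlr3 had -2.73, Tlr2 -2.26, Tlr7 -2.25, Cd14 -1.33 and Tlr6 -0.77. Mkl1 had -0.79 (adjusted p = 0.0238, edgeR), with 19.5 and 20.9 CPM in KO of experiment 1 and 14.6 and 10.4 CPM in KO of experiment 2. Experiment cannot be told apart from any other property in which the batches differed.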

How the results depend on the processing

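Over the alternatives, 484 of the values of single genes kept their direction and side of the threshold, 37 fell short of it, 20 passed it and 19 changed sign. Requiring a 2-fold change left 2231 genes and 2 of the 10 receptors in experiment 1, 1274 genes in experiment 2, 331 genes and 1 receptor over both, and 3245 genes for the interaction. An adjusted p under 0.01 left 234 genes and 1 receptor in experiment 2, 208 genes and 1 receptor over both and 3247 genes for the interaction. One fit of 4 groups called 4899 genes in experiment 2, against 2279 in the fit of that experiment alone. Over both experiments, where 1027 genes and 2 receptors passed, DESeq2 called 2492 and 4, the mean effect beside the interaction 4811 and 7, and no experiment term 4 and 0 (2983 genes at an unadjusted p under 0.05 by edgeR). Tlr9 had a log2 fold change of 0.11 in experiment 2 and 0.11 over both, and a difference between experiments of 0.010, with limma-voom, and 0.053 over both with upper-quartile scaling. The cause of these changes was not tested.

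With 1 library left out, 6349 to 7149 genes and 7 to 8 receptors passed in experiment 1, 232 to 1388 genes and 1 to 5 receptors in experiment 2, 243 to 1100 genes and 1 to 3 receptors over both, and 3935 to 6508 genes and 4 to 7 receptors for the interaction. The lowest counts were without WT 1, KO 8, WT 1 and WT 2 in turn. Log2 fold changes that changed sign ranged from -0.39 to 0.12 for Cd14 and -0.093 to 0.26 for Tlr9 in experiment 1, from -0.16 to 0.43 for Tlr8, -0.22 to 0.44 for Tlr13 and -0.76 to 1.01 for Tlr9 in experiment 2, and from -0.27 to 0.44 for Tlr9 over both. Differences between experiments ranged from -0.29 to 0.16 for Tlr1, -0.044 to 0.16 for Tlr4 and -0.85 to 0.96 for Tlr9, the last passing the threshold in opposite directions without WT 4 (-0.85) and without WT 3 (0.96). Fits without a library leave 1 library in a group, which is assumed to vary like the others.

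No paired analysis was possible because WT and KO libraries share no replicate number. With 2 libraries a group in each experiment, tests rest on few degrees of freedom, and differences under the spread of these libraries were not detectable. Tlr9, at 9.63 to 33.1 CPM, had a standard error of 0.56 on the log2 scale in experiment 2. CPM from library totals without TMM moved 6 of 40 group levels by more than the SD of their 2 libraries.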
